A study of Oryctolagus cuniculus with 6 samples.

Results

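Expression of 9 tight junction genes was examined in RNA-seq data from primary limbal stem cells (LSCs), the cells that grow out of explants of the limbus at the rim of the rabbit cornea. The genes are CLDN1, CLDN4, CLDN7, OCLN, MARVELD2, F11R, TJP1, CGN and PARD3, chosen by name because their products build the tight junction barrier. All 9 were found among the 22190 genes of the deposited count table, and all 9 passed the filter on low counts. In the fresh group (3 libraries), explants came from corneas that had not been frozen. In the preconditioned group (3 libraries), the corneas were first kept in liquid nitrogen for 1 week in a freezing medium of DMEM/F12, serum and dimethyl sulfoxide with added IL-1β, then thawed and explanted in the same way. Cold storage and IL-1β were given together, so that their effects cannot be told apart here. Neither the strain, sex and age of the rabbits nor the animal behind each library is given in the sources used here, so that p values may measure only the spread between libraries, which may be technical.

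Tight junctions seal the space between neighbouring epithelial cells at their apical border, and in the corneal epithelium they form in the superficial layers and keep tear fluid and pathogens out. Claudins are the membrane proteins whose strands close the gap and set its permeability, while occludin and tricellulin, which share the MARVEL domain, join the strands between cell pairs and at the corners where 3 cells meet. The adhesion molecule JAM-A, encoded by F11R, sits beside them. On the inner face, the scaffold ZO-1, encoded by TJP1, ties these proteins to actin, cingulin (CGN) links the scaffold to actomyosin, and PARD3 places the junction as part of the PAR polarity complex.

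Library totals were 31952352 to 34327534 counts, and the members had from 455 to 25165 counts in a library, so that counting error was small for each of them. Levels are given as CPM, the counts of a gene per 1000000 counts of its library, after TMM scaling, and levels of different genes are compared only as FPKM, which divides by gene length. Of the epithelial markers, KRT5 was at 7337 to 11740 CPM and TP63 at 112 to 246 CPM in all 6 libraries. PAX6 was at 174 to 459 CPM and CDH1 at 427 to 591 CPM, while KRT15 was at 9.71 CPM or less. KRT12 and KRT14 were not found by symbol in the deposited count table and so were not analysed here.

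CLDN4 had the largest estimated change of the 9 members and was the only member to pass edgeR's test with all libraries. It encodes claudin 4 (NCBI gene 100340963), a barrier-forming claudin of many epithelia. Its level was 208, 285 and 248 CPM in fresh replicates 1 to 3 and 493, 805 and 428 CPM in preconditioned replicates 1 to 3. Every preconditioned library lay above every fresh library, and preconditioned replicate 2 stood highest. The group means were 247 ± 38.8 and 575 ± 201.6 CPM (SD, n = 3 each), a rise of 2.33-fold with a 95% interval of 1.54 to 3.53. The log2 fold change of 1.22 (standard error 0.25) had an adjusted p of 0.046 in edgeR's quasi-likelihood test. Of the 15029 genes tested, 645 had a higher log2 fold change. A gene was called if its adjusted p did not exceed 0.05 and it changed by 1 or more on the log2 scale in either direction. CLDN4 was the 1 member called of 9, where 2.29% of all tested genes were called. DESeq2 also called CLDN4 and no other member, against 7.78% of the genes to which it gave an adjusted p. Without the fold cutoff the count stayed at 1, against 5.08% of tested genes.

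**Figure D1:**
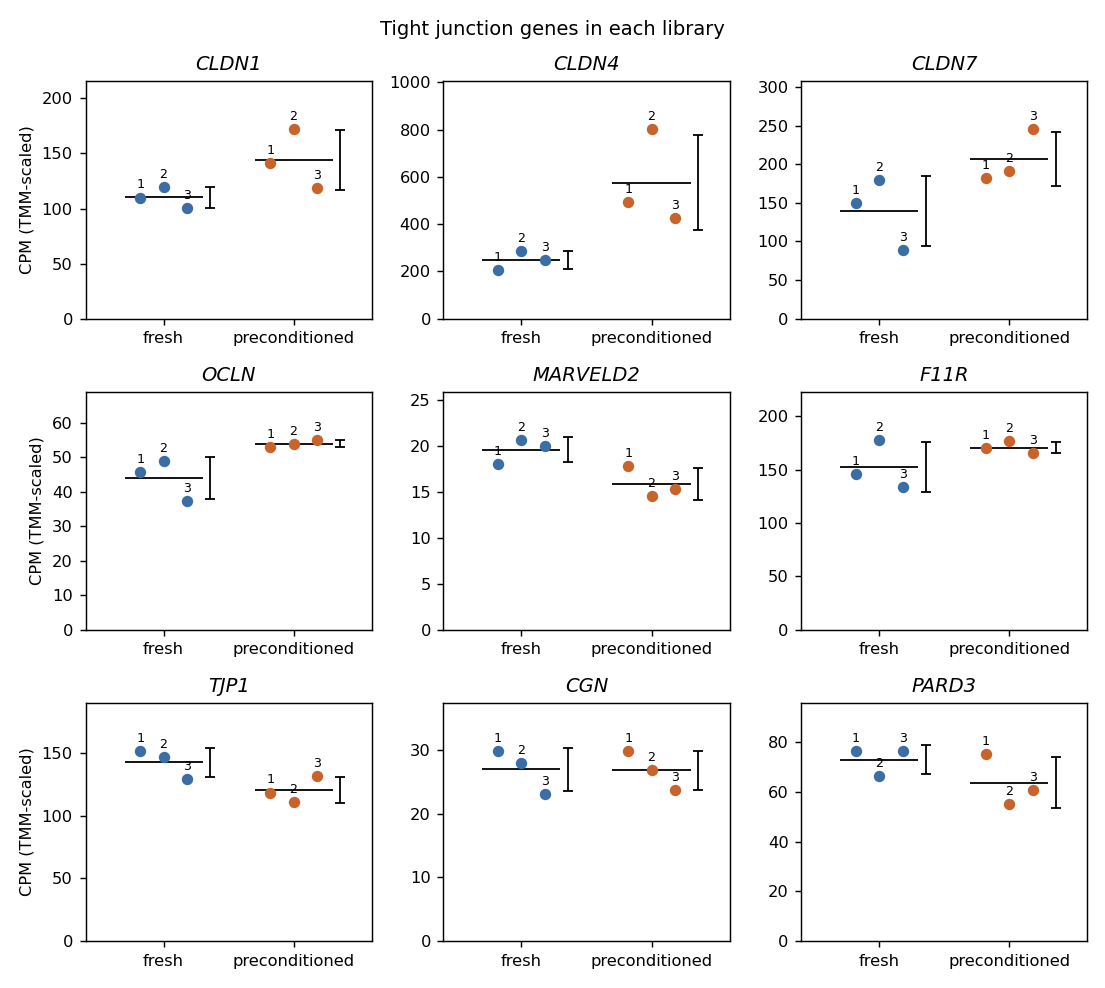
Each panel shows 1 gene, with TMM-scaled CPM on a vertical axis that starts at 0. Points are libraries labelled by replicate number, horizontal lines are group means and bars at the side are ± 1 SD (n = 3). CLDN4 rises from a mean of 247 to 575 CPM, whereas the other panels show smaller differences.

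The adjusted p of CLDN4 lay close to its limit, and 7 of 14 alternative settings did not call it. Leaving out preconditioned replicate 2, the highest library, gave a log2 fold change of 0.90 (adjusted p = 0.13). The gene was also not called without fresh replicate 1, 2 or 3 (adjusted p = 0.13, 0.14 and 0.11) or without preconditioned replicate 3 (0.075), whereas it was called without preconditioned replicate 1 (0.025). Each of the 14 settings gave a higher level in the preconditioned group. The estimates ran from 0.90 to 1.395 and the adjusted p from 0.00035 to 0.14.

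**Figure D2:**
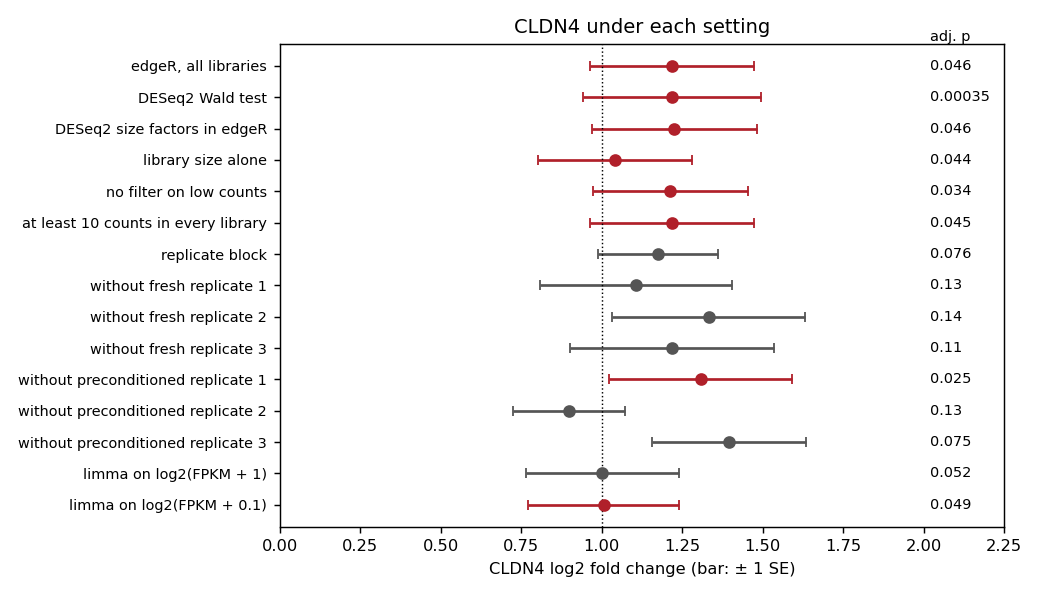
Points give the log2 fold change of CLDN4, preconditioned against fresh, under edgeR with all libraries and 14 alternatives, with bars of ± 1 standard error and adjusted p values at the right. Red settings call the gene, and the dotted line marks the fold cutoff of 1. Estimates run from 0.90 to 1.395.

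The other claudins of the set did not pass the test. CLDN1 (NCBI gene 100037713) encodes claudin 1, whose loss opens the epidermal barrier in mice. It was at 110.0, 119.6 and 101 CPM in the fresh libraries and at 142, 173 and 119 CPM in the preconditioned libraries. Preconditioned replicate 3 fell just below the highest fresh library, so that the groups overlapped. Its log2 fold change of 0.39 had a 95% interval of 0.02 to 0.76 (adjusted p = 0.14 in edgeR's test). CLDN7 (NCBI gene 100338591), which is also found along the lateral membrane, was at 149, 179 and 89.3 CPM in the fresh group and at 182, 191 and 246 CPM in the preconditioned group. Its groups did not overlap, although fresh replicate 2 and preconditioned replicate 1 were nearly level and fresh replicate 3 was far below the others. The difference of 0.57 on the log2 scale (standard error 0.26, adjusted p = 0.19 from edgeR) had a 95% interval of −0.04 to 1.18, which reaches past the fold cutoff.

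Per length, claudins were the most abundant members. In the fresh group the FPKM was 203 ± 16.9 for CLDN1, 176 ± 28.02 for CLDN4 and 115 ± 37.7 for CLDN7 (SD, n = 3 each). The ranges of CLDN1 and CLDN4 overlapped between libraries, as did those of CLDN4 and CLDN7, although within each fresh library CLDN1 was the highest and CLDN7 the lowest of them. In the preconditioned group CLDN4 had the highest mean at 362 ± 116 FPKM, ahead of CLDN1 at 236 ± 39.0 and CLDN7 at 152 ± 26.8 (SD, n = 3 each). The lowest CLDN4 library there, at 273 FPKM, lay within the range of CLDN1, whose highest library was at 274 FPKM, although CLDN4 exceeded CLDN1 within each preconditioned library.

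The makeup of the claudin pool was described by the share of each claudin in the summed FPKM of all 22 claudins in the table, a measure that does not depend on scaling between libraries. These shares and the ratios below were chosen after the values had been seen and carry no test. CLDN4 made up 30.2%, 34.0% and 39.0% of the pool in the fresh libraries and 44.7%, 53.4% and 40.4% in the preconditioned libraries. The share of CLDN1 was 41.3%, 36.8% and 40.9% in the fresh libraries against 33.2%, 29.6% and 29.0% in the preconditioned libraries. Neither share overlapped between groups, the CLDN4 share being higher and the CLDN1 share lower after preconditioning. CLDN7 took 16.3% to 25.2% of the pool in fresh and 14.7% to 27.1% in preconditioned libraries. Together the 3 genes gave 95.7% to 97.8% of claudin FPKM in every library. The CLDN4 to CLDN1 ratio of FPKM was 0.731, 0.923 and 0.952 in the fresh libraries and 1.34, 1.80 and 1.39 in the preconditioned libraries. The CLDN4 to CLDN7 ratio overlapped, at 1.20, 1.37 and 2.38 in the fresh and 2.33, 3.62 and 1.49 in the preconditioned libraries.

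**Figure D3:**
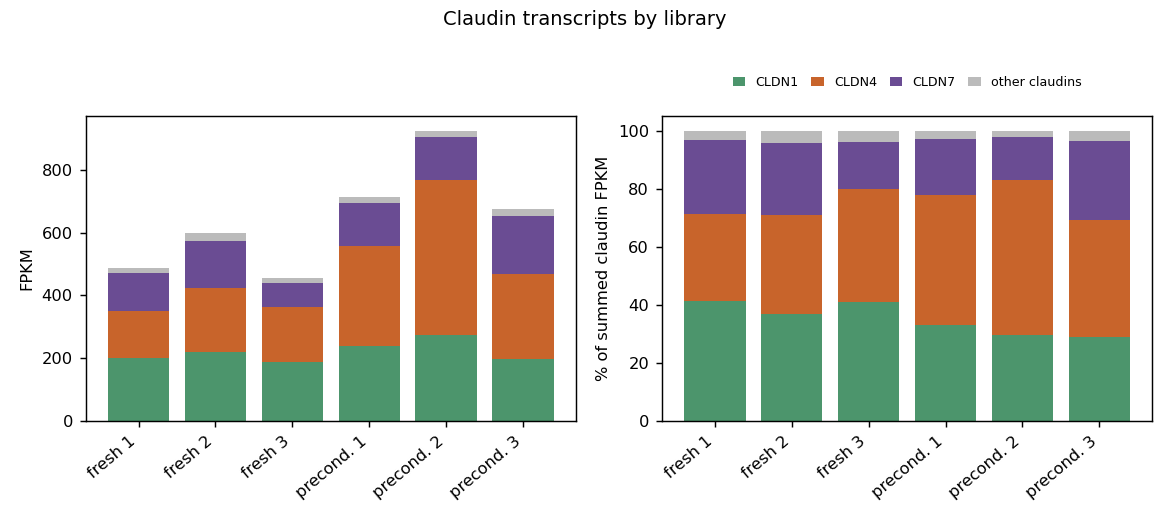
The left panel stacks claudin FPKM for each library and the right panel shows the same values as percent of the library's claudin sum, both from 0. Colours mark CLDN1, CLDN4 and CLDN7, and grey the other claudins. The summed claudin FPKM was 455 to 597 in fresh and 675 to 924 in preconditioned libraries, and the CLDN4 share was 30.2% to 39.0% and 40.4% to 53.4%.

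The MARVEL proteins differed in opposite directions by amounts that did not pass the test. OCLN (NCBI gene 100338492), encoding occludin, was at 45.8, 49.0 and 37.3 CPM in fresh libraries and at 53.0, 53.9 and 55.2 CPM in preconditioned libraries. The preconditioned values were close together and all above the fresh ones. On the log2 scale occludin transcripts were 0.30 higher (standard error 0.13, 95% interval −0.01 to 0.60, adjusted p = 0.17 from edgeR). With library size alone the difference was 0.13 (adjusted p = 0.54 from edgeR). In FPKM, which carry no TMM factor, OCLN was at 9.13, 9.82 and 7.52 in fresh libraries. It was at 9.68, 9.31 and 9.92 FPKM in preconditioned libraries, so that the groups overlapped. MARVELD2 (NCBI gene 100337735), encoding tricellulin of the tricellular corners, was the least abundant member, at 3.73 ± 0.271 FPKM in the fresh and 2.70 ± 0.359 FPKM in the preconditioned group (SD, n = 3 each). In CPM it was at 18.1, 20.7 and 19.99 in fresh libraries and at 17.8, 14.5 and 15.3 in preconditioned libraries. The groups did not overlap, but fresh replicate 1 and preconditioned replicate 1 were nearly equal. The log2 fold change was −0.30 (standard error 0.15, 95% interval −0.65 to 0.05, adjusted p = 0.22 from edgeR). The FPKM ratio of OCLN to MARVELD2 was 2.67, 2.49 and 1.96 in fresh libraries and 3.13, 3.90 and 3.79 in preconditioned libraries, without overlap.

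F11R (NCBI gene 100340669) was at 146, 178 and 134 CPM in fresh libraries and at 170.0, 176 and 166 CPM in preconditioned libraries. The groups overlapped, and the fresh libraries were the more spread, with means of 152 ± 23.0 and 171 ± 5.41 CPM (SD, n = 3 each). The log2 fold change of 0.16 had a 95% interval of −0.14 to 0.47 (adjusted p = 0.42 from edgeR), and with library size alone it was −0.01.

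Among the cytoplasmic proteins, TJP1 (NCBI gene 100346390) is of interest because the study stained its product ZO-1 in stratified cell sheets. TJP1 transcripts were at 152, 147 and 129.6 CPM in fresh libraries and at 119, 111 and 132 CPM in preconditioned libraries. Preconditioned replicate 3 lay just above fresh replicate 3, so that the groups overlapped. The means were 143 ± 11.6 and 120.4 ± 10.6 CPM (SD, n = 3 each). Their log2 fold change of −0.24 (standard error 0.12) did not pass the test, with a 95% interval of −0.52 to 0.03 and an adjusted p of 0.199 from edgeR. In the FPKM of the deposited table, which carry no TMM factor, TJP1 was at 21.4, 20.8 and 18.4 in fresh libraries and at 15.3, 13.5 and 16.7 in preconditioned libraries, without overlap. With library size alone, the log2 fold change was −0.41 (adjusted p = 0.072).

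CGN (NCBI gene 100328675) had almost the same level in both groups. It was at 29.9, 27.96 and 23.2 CPM in fresh libraries and at 29.9, 26.9 and 23.8 CPM in preconditioned libraries. Its difference on the log2 scale was −0.01 with a 95% interval of −0.37 to 0.35 (adjusted p = 0.98 from edgeR). PARD3 (NCBI gene 100345030) was at 76.6, 66.3 and 76.4 CPM in fresh libraries and at 75.3, 55.2 and 60.9 CPM in preconditioned libraries. Preconditioned replicate 1 was as high as the fresh libraries and the other preconditioned libraries were below all of them. The log2 fold change was −0.20 with a 95% interval of −0.53 to 0.14 (adjusted p = 0.38 from edgeR). Relative to TJP1 in the same library, the FPKM of OCLN was 0.408 to 0.473 in the fresh and 0.593 to 0.689 in the preconditioned group, and that of F11R was 3.31 to 4.19 and 4.34 to 5.49. Neither ratio overlapped between groups, whereas the ratios of CGN and PARD3 to TJP1 did.

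**Figure D4:**
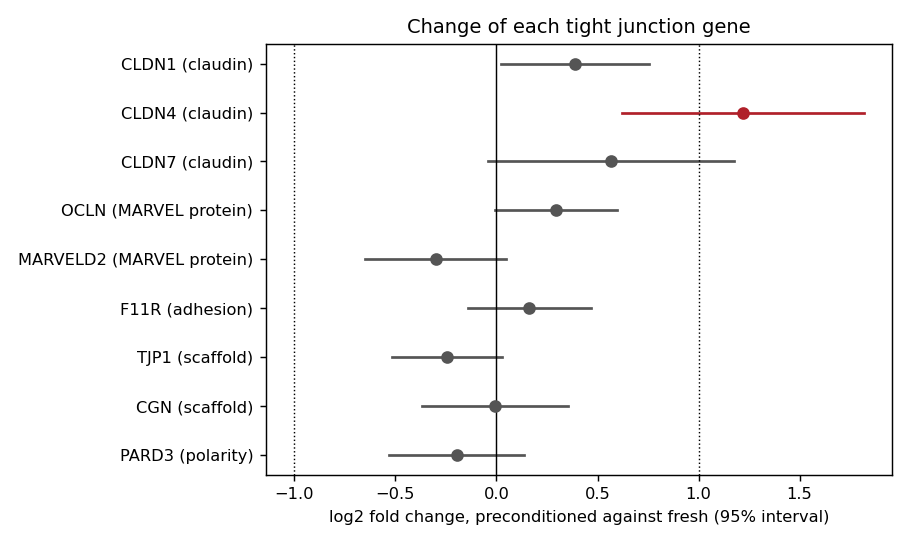
Points are log2 fold changes of the 9 genes, preconditioned against fresh, with 95% intervals from edgeR's test, and dotted lines mark the fold cutoff. CLDN4, in red, is called at 1.22, and the other estimates lie between −0.30 and 0.57.

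Across the set, 5 genes had a positive and 4 a negative log2 fold change, where 50.5% of all tested genes had a positive one. The median was 0.16 against 0.01 for all tested genes. The positive values were those of the claudins, OCLN and F11R (−0.01 with library size alone), all membrane proteins. MARVELD2, also a membrane protein, and the cytoplasmic TJP1, PARD3 and CGN had negative values, CGN turning positive without fresh replicate 1 or 2 or preconditioned replicate 3. With library size alone the median of all tested genes moved to −0.16 and that of the 9 genes to −0.01. Leaving out a library gave the 9 genes a median from 0.07 (without fresh replicate 3) to 0.29 (without fresh replicate 2). It was 0.004 with limma on log2(FPKM + 1) and on log2(FPKM + 0.1), against −0.09 and −0.15 for all tested genes. The groups did not overlap in CPM for 4 members (CLDN4, CLDN7 and OCLN higher, MARVELD2 lower), which is 44.4% against 36.7% of all tested genes. That share holds for TMM scaling only. With library size alone, CLDN4, TJP1 and MARVELD2 did not overlap. The share of all tested genes was not computed for that scaling, so these members cannot be set against it.

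By FPKM, F11R followed the claudins at 74.4 ± 11.2 in the fresh and 74.1 ± 1.501 in the preconditioned group (SD, n = 3 each). Then came TJP1 with 20.2 ± 1.55 and 15.2 ± 1.604, PARD3 with 14.2 ± 1.15 and 11.04 ± 2.07, OCLN with 8.82 ± 1.18 and 9.63 ± 0.303, and CGN with 5.61 ± 0.690 and 4.97 ± 0.628. In the fresh group each of these genes was separated from its neighbour in this order, except that F11R and CLDN7 overlapped. In the preconditioned group PARD3 and OCLN overlapped. The order of the genes by mean was the same in both groups but for CLDN1 and CLDN4, which changed places.

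The cells are a bulk sample, in which fewer cells of a type and less RNA per cell cannot be told apart. The summed CPM of 7 epithelial markers overlapped between groups, at 9758 to 13488 in fresh and 9167 to 13502 in preconditioned libraries, and 3 of the 7 had a positive log2 fold change. Most of this sum came from KRT5. KRT3, a keratin of differentiated corneal epithelium, was at 961, 2655 and 409 CPM in fresh and at 801, 239 and 697 CPM in preconditioned libraries, a wide spread with overlap (log2 fold change −1.21, adjusted p = 0.296 from edgeR). Of the others, TP63 was at 226 to 246 CPM in fresh and at 112 to 183 CPM in preconditioned libraries (adjusted p = 0.059 from edgeR), and EPCAM at 77.5 to 91.8 and 102 to 126 CPM (adjusted p = 0.060). PAX6 was at 174 to 218 CPM in fresh and at 203 to 459 CPM in preconditioned libraries, with overlap. Its log2 fold change was 0.81 (adjusted p = 0.11 from edgeR). The conjunctival list, with 3 of 4 genes positive, also overlapped at 2656 to 4693 and 1911 to 4665 CPM. The 10 stromal fibroblast markers summed to 529 to 1144 CPM in fresh and 1299 to 2323 CPM in preconditioned libraries, without overlap, with 6 of 10 positive and COL1A1 called. The mean of COL1A1 was 91.3 CPM in the fresh and 578 CPM in the preconditioned group, and the sums of the other 9 overlapped, at 472 to 1036 and 779 to 1630 CPM. The 6 immune markers summed to 96.0 to 132 CPM and 123 to 311 CPM, and all 5 that were tested had a positive log2 fold change. Nearly all of the sum came from CD68, a macrophage marker, which was at 97.6, 129 and 93.4 CPM in fresh and at 121, 299.6 and 288 CPM in preconditioned libraries, with overlap (2.21-fold, adjusted p = 0.085 from edgeR). CSF1R and ITGAM were at no more than 1.603 and 0.985 CPM in fresh libraries and reached 4.73 and 4.16 CPM in preconditioned replicate 2, the library in which CLDN4 was also highest. In preconditioned replicate 1, where CLDN4 was at 493 CPM, CSF1R and ITGAM were at 0.669 and 0.152 CPM. In preconditioned replicate 3, they were at 1.32 and 1.09 CPM. PTPRC was at most at 1.503 CPM and CD3E had at most 3 counts. Endothelial markers summed to at most 13.4 CPM and melanocyte markers to at most 6.39 CPM, with TEK, TYR, PMEL and MLANA at no more than 3 counts. The part of TP63, KRT3, EPCAM, PAX6 and the stromal and immune markers in the rise of CLDN4 was not tested.

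The rest of the pathway was described with 8 lists of 85 further genes, 81 of which were in the table and 69 of which were tested. None of the 69 was called by edgeR, against 2.29% of all tested genes. Without adjustment, 29 of them (42.0%) had a p under 0.05, where 30.6% of all tested genes had one. DESeq2's Wald test called 3 of the 69 (4.35%), namely CLDN6, PRSS8 and SNAI1, against its share of 7.78% over all genes. Their median log2 fold change was 0.05, with 36 positive and 33 negative values. LSR was the 1 gene of 69 (1.45%) with an adjusted p of at most 0.05, where 5.08% of all tested genes had one. It encodes angulin-1, which marks tricellular corners and recruits tricellulin. LSR was at 47.5, 59.1 and 56.3 CPM in fresh and at 37.2, 34.9 and 32.3 CPM in preconditioned libraries, so that all preconditioned libraries were lower. Its level fell by 0.64 on the log2 scale (standard error 0.13, adjusted p = 0.042 from edgeR), which is short of the fold cutoff. The adjusted p was above 0.05 when any library other than preconditioned replicate 1 was left out.

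**Figure D5:**
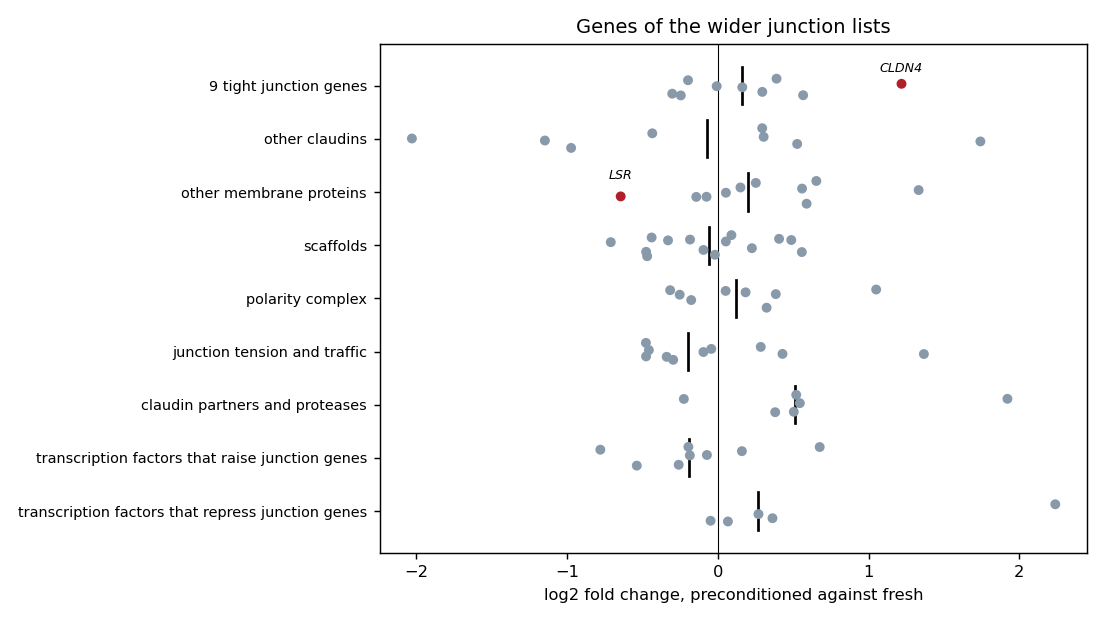
Each point is a tested gene, placed by its log2 fold change, preconditioned against fresh, with 1 row for the 9 genes and 1 for each wider list. Vertical bars are medians, and red points have an adjusted p of at most 0.05 from edgeR. These are CLDN4 at 1.22 and LSR at −0.64.

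Of 20 further claudins, 18 were in the table and 8 were tested, with a median log2 fold change of −0.07. CLDN6, a claudin best known from embryonic epithelia, was at 4.93, 3.63 and 1.86 CPM in fresh and at 9.65, 9.59 and 15.6 CPM in preconditioned libraries. Its groups did not overlap, and its log2 fold change of 1.74 (standard error 0.395) narrowly missed the test (adjusted p = 0.052 from edgeR). Of the 14 alternatives, 6 called CLDN6, DESeq2 among them. CLDN8 was at 1.05 ± 0.892 and 0.254 ± 0.170 CPM (SD, n = 3 each), with overlap and an adjusted p of 0.20. CLDN12, the most abundant of these 8 per length, was at 28.4 ± 3.30 and 35.1 ± 8.41 CPM (SD, n = 3 each, adjusted p = 0.33). In every library, 7 claudins had at most 2 counts, namely CLDN16, CLDN17, CLDN18, CLDN19, CLDN20, CLDN24 and CLDN25.

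Among the 14 tested scaffolds, 6 had a positive log2 fold change and the median was −0.06. The log2 fold change of PALS1, a polarity scaffold, was 0.56 (adjusted p = 0.072 from edgeR) and that of TJAP1 −0.71 (adjusted p = 0.12). YBX3, a Y-box factor that binds ZO-1, was the most abundant of this list and was at 296 ± 16.8 and 218 ± 20.8 CPM (SD, n = 3 each, adjusted p = 0.064). CLMP, an adhesion molecule with the highest mean FPKM over all libraries of 10 tested membrane proteins (35.6, against 34.9 for MARVELD1, which was the higher in the preconditioned group), was at 179 ± 19.8 and 170 ± 39.0 CPM (SD, n = 3 each, adjusted p = 0.81), and 7 of these 10 had a positive log2 fold change.

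In the polarity list, 5 of 8 genes had a positive log2 fold change. CDC42, a small GTPase of the PAR complex, was at 539 ± 25.8 and 674 ± 55.3 CPM (SD, n = 3 each, adjusted p = 0.11), the log2 fold change of PRKCZ was 1.05 (adjusted p = 0.17) and that of PARD6A 0.39 (adjusted p = 0.52). Of 10 genes for junction tension and traffic, 7 had a negative log2 fold change. MYLK, the myosin light chain kinase, was low at 0.769 ± 0.566 and 1.99 ± 0.696 CPM (SD, n = 3 each, adjusted p = 0.16). ARHGEF11, a guanine nucleotide exchange factor, stood at −0.48 on the log2 scale (adjusted p = 0.057).

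Of 6 claudin partners and proteases, 5 had a positive log2 fold change, with a median of 0.51. PRSS8, the membrane protease prostasin, was at 14.3, 20.9 and 17.9 CPM in fresh and at 23.4, 93.7 and 84.1 CPM in preconditioned libraries. The last 2 libraries were far above the rest, and the log2 fold change was 1.92 (standard error 0.49, adjusted p = 0.064 from edgeR). The protease inhibitors SPINT1 and SPINT2 had log2 fold changes of 0.54 and 0.52 (adjusted p = 0.097 and 0.059).

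Transcription factors known to raise junction genes differed in direction, with 2 of 8 positive. GRHL2, a grainyhead factor, was at 81.7, 82.7 and 63.0 CPM in fresh and at 59.1, 37.8 and 35.7 CPM in preconditioned libraries (log2 fold change −0.78, adjusted p = 0.073 from edgeR). ELF3, an epithelial ETS factor, stood at 0.68 on that scale (adjusted p = 0.075). Among 5 repressors, SNAI1 (Snail) was at 0.493, 1.997 and 1.15 CPM in fresh and at 6.82, 6.75 and 3.66 CPM in preconditioned libraries. Its groups did not overlap, at low levels, and the log2 fold change was 2.24 (standard error 0.53, adjusted p = 0.054). SNAI2 (Slug) was more abundant, at 36.2 ± 2.80 and 38.0 ± 1.69 CPM (SD, n = 3 each, adjusted p = 0.72), and TWIST1 differed by 0.36 on the log2 scale (adjusted p = 0.71).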

How the data were processed

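RNA-seq was performed on polyA RNA of rabbit LSCs in 3 fresh and 3 preconditioned libraries. The authors aligned reads with hisat2 (2.1.0), counted them per gene with htseq-count (0.11.2) and deposited the counts without normalization. They also deposited FPKM values, in which counts are scaled by gene length and library total. Build, annotation, strand setting and gene lengths are not given in the sources used here, so that no coordinates are printed. Groups came from the sample titles.

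The counts were fitted with edgeR 4.0.16 (R 4.3.3) for all genes that passed filterByExpr (15029 of 22190). TMM scaling, the quasi-likelihood test with robust estimation and Benjamini-Hochberg adjustment over all tested genes were used, with condition as the only factor. A call required an adjusted p of 0.05 or less and a log2 change of 1 or more in either direction, the cutoffs of the methods, which used DESeq2. Standard errors were derived from the F statistic and 95% intervals from its degrees of freedom. The alternatives were DESeq2 1.42.0, its size factors, library size alone, no filter and a filter of 10 counts in every library, a block for the replicate number, omission of each library, and limma 3.58.1 on log2(FPKM + 1) and log2(FPKM + 0.1), a scale that understates changes of low genes. Fits were tested on simulated counts. Between libraries of a group, chi-square values per degree of freedom ran from 48.1 to 147, and none was a copy of another.

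The members and lists were chosen with earlier results of these data known. Named are the 9 members and, from each wider list, those whose adjusted p was 0.05 or less or otherwise the 2 with the largest changes, and the gene with the highest mean FPKM, except 1 gene that is not reported here. The 3 genes most like TJP1 and the 3 most like OCLN by Pearson's r over the libraries are named as well.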

Additional observations from a re-analysis of the deposited data

How the results depend on the processing

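CLDN4 was the member called by DESeq2, DESeq2's size factors, library size alone, both other filters, limma on log2(FPKM + 0.1) and the fit without preconditioned replicate 1. Of all genes, DESeq2 called 7.78%, its size factors in edgeR 2.34% and library size alone 3.76%. The fit with no filter called 1.85%, that with 10 counts in every library 2.29% and limma on log2(FPKM + 0.1) 3.93%. With the replicate number as a block 0 members were called (CLDN4 log2 fold change 1.18, adjusted p = 0.076), and limma on log2(FPKM + 1) also called 0 (1.002, adjusted p = 0.052). Of all genes, the block called 0.200% and this limma fit 1.88%. Both member counts were the same without the fold cutoff, where 0.200% and 7.55% of all genes passed. Leaving out each library gave 0 to 1 members with either rule. Over all genes, 9.99% were called without preconditioned replicate 1 and 0.0908% to 0.468% without any one of the other libraries. Libraries of the same number did not deviate together (r = −0.07, −0.08 and −0.12 across genes), and no fresh library was most like the preconditioned library of its own number, so that the numbers are not taken as pairs. Over all genes the block called 30. Of the other members, CLDN1, CLDN7, OCLN, MARVELD2, TJP1 and PARD3 kept their direction in all 14 alternatives and were called in none. Their sizes moved. The log2 fold changes ran from 0.21 to 0.52 (CLDN1), 0.33 to 0.79 (CLDN7) and 0.12 to 0.38 (OCLN). Those of MARVELD2, TJP1 and PARD3 ran from −0.47 to −0.24, −0.41 to −0.19 and −0.37 to −0.10. F11R turned to −0.0063 with library size alone. CGN ranged from −0.11 to 0.076 when a library was left out and was positive without fresh replicate 1, fresh replicate 2 or preconditioned replicate 3. For these members the cause was not tested.

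Of the wider genes, 63 to 81 were tested, depending on the setting. Called were 0 by edgeR, 4 by DESeq2 (CLDN6, CLDN11, PRSS8, SNAI1; 5.63%, against 7.78% of all genes), 3 without a filter (CLDN6, CLDN11, SNAI1; 3.70% against 1.85%), 1 with 10 counts in every library (1.59% against 2.29%) and 2 by either limma fit (2.90%, against 1.88% and 3.93%). Leaving out a library gave 0 to 5, the highest number without preconditioned replicate 1 (6.94% of the wider genes then tested, against 9.99% of all genes). Without the fold cutoff the number was 1 (LSR). It was 18 with DESeq2 (25.4% of the wider genes with an adjusted p, against 19.1% of all genes), 7 with library size alone and in either limma fit (10.1%, against 8.92%, 7.55% and 8.02% of all genes), 4 without a filter (4.94% against 4.38%), 2 with 10 counts in every library (3.17% against 5.76%) and 0 with the block (against 0.200% of all genes). Leaving out a library gave 0 to 24, the highest again without preconditioned replicate 1 (33.3% against 25.2% of all genes). Without any one of the other libraries it was 0, and 0.0908% to 0.533% of all genes passed. When a library was left out, CLMP ranged from −0.29 to 0.044 (positive without fresh replicate 1 or preconditioned replicate 2) and TWIST1 from −0.46 (without preconditioned replicate 2) to 0.78. TWIST1 turned to −0.038 and −0.10 in the limma fits, and SNAI2 to −0.10, −0.095 and −0.099 with library size alone and in the limma fits. The cause was not tested. Depth did not limit the members, whereas 11 of the 22 claudins in the table had too few counts to be tested.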

Other observations

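The deposited annotation assigns 167 genes to the KEGG pathway of tight junctions, a broader list that was examined after the tables had been seen and that holds CLDN4. Of these, 142 were tested, and 7 (4.93%) had an adjusted p of at most 0.05 in edgeR's test, against 5.08% of all tested genes. ARPC4, a subunit of the Arp2/3 complex that branches actin, fell from 95.2 ± 14.4 to 46.0 ± 6.27 CPM (SD, n = 3 each, log2 fold change −1.05, adjusted p = 0.031) and was called together with CLDN4. ACTN1, an actin crosslinker, fell from 319 ± 9.53 to 199 ± 25.4 CPM (SD, n = 3 each, adjusted p = 0.039), and MYH10, a nonmuscle myosin heavy chain, from 86.0 ± 3.48 to 62.6 ± 3.29 CPM (SD, n = 3 each, adjusted p = 0.046). MAP3K1, a kinase upstream of JNK, fell from 154 ± 21.4 to 98.6 ± 5.11 CPM (SD, n = 3 each, adjusted p = 0.042). ITGB1, the integrin beta 1 chain, rose from 1870 ± 311 to 3510 ± 686 CPM (SD, n = 3 each, adjusted p = 0.048), and PPP2CB, a catalytic subunit of protein phosphatase 2A, from 114 ± 6.86 to 175 ± 11.02 CPM (SD, n = 3 each, adjusted p = 0.037). In the 14 alternatives, from 5 (ITGB1) to 8 (ARPC4, ACTN1, MAP3K1 and PPP2CB) kept the adjusted p of each of these 7 genes at 0.05 or less. None of the 7 passed with the replicate block or when any library other than preconditioned replicate 1 was left out. The number of genes called on this list, 2 in edgeR's test (1.41%, against 2.29% of all genes), was 0 in those fits (in which 0.0908% to 0.468% of all genes were called), 7 with DESeq2 (4.86% of the list, against 7.78% of all genes) and 12 without preconditioned replicate 1 (8.28% against 9.99%).

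CLDN11, a claudin known from myelin and the testis, did not pass edgeR's filter and was singled out after its values were seen. It had 28, 4 and 93 counts in the fresh libraries and 1, 1 and 0 counts in the preconditioned libraries. DESeq2 gave it an adjusted p of 0.0017 and edgeR without a filter one of 0.048. In the edgeR fits that left out a library and in which it passed the filter, the adjusted p was 0.097 without fresh replicate 2 and 0.066, 0.18 and 0.14 without preconditioned replicates 1, 2 and 3. JAM2, a relative of F11R, was also too low to be tested, with 8, 16 and 27 counts in fresh and 1, 4 and 3 counts in preconditioned libraries.

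Over the 6 libraries, the genes whose log2(CPM + 1) followed TJP1 most closely were LIPE (Pearson's r = 0.998), SNRNP200 (0.989) and PCGF6 (0.985). Genes with only a LOC name were left out of this ranking. Those closest to OCLN were MLST8 (0.990), DEFB1 (0.989) and BCO2 (0.987). These values describe 6 libraries that fall into 2 groups, and each gene is an extreme of the other genes among the 15029 tested, so that no test is given.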
